A study of Mus musculus with 2 samples.

Results

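The cells described here are the 319 T cells of adult mouse back skin in which Tnfrsf4, the gene of the costimulatory receptor OX40, made up at least 0.4% of the cell's unique molecular identifiers (UMIs, one per captured RNA molecule). They were chosen by this measured share of Tnfrsf4 and are called OX40-high after it. They are 4.83% of the 6601 skin barcodes, and the series holds 15331 barcodes in all. The rule also asked for at least 200 genes, at most 10% mitochondrial UMIs, at least 1 UMI of Cd3d, Cd3e and Cd3g together, fewer than 3 UMIs of 5 cell cycle genes, and no UMI of Ccr7 or Il13. Those filters kept 4400 skin cells, of which the OX40-high cells are 7.25%. The 3013 cells that passed the same filters with Tnfrsf4 under 0.2% of UMIs are called OX40-low, and the 1068 cells between the limits entered neither group. Since Tnfrsf4 chose the cells, it was left out of every comparison and of the totals.

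The series holds 1 skin and 1 lung sample, each made from cells freed with collagenase and sorted as GFP+ CD4+ CD3+ CD45+, where GFP reports Foxp3, the lineage factor of regulatory T cells (Tregs). Skin cells came from the strain Foxp3-CreERT2GFP C57Bl/6, and both groups of skin cells come from this 1 library. The lung came from Foxp3-GFP C57Bl/6 mice of the Tachilla strain. The labels name no treatment and no number of animals. With 1 library there is no replicate and no test: all intervals below are exact 95% intervals that cover counting error only, and PCR or handling differences are outside them.

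OX40 belongs to the tumour necrosis factor (TNF) receptor superfamily, whose costimulatory members bind trimeric ligands on antigen-presenting cells and pass the signal through TRAF adaptor proteins to NF-kappaB. On Tregs, OX40, GITR (Tnfrsf18) and 4-1BB (Tnfrsf9) can be raised by antigen receptor signals. Together with IL-2, these receptors support expansion and effector differentiation. CD25, encoded by Il2ra, is a chain of the high-affinity IL-2 receptor.

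Promoter windows are shown for genes that stood high with OX40: a neighbour of Tnfrsf4 on chromosome 4, another TNF receptor gene, an NF-kappaB subunit gene and the CD25 gene. Each runs from 250 bases before to 50 bases after a RefSeq start on GRCm38.p6, and capitals mark letters that match the NF-kappaB consensus on either strand, overlapping matches joined.
Tnfrsf18 (GITR), chr4:156026072-156026371, plus strand: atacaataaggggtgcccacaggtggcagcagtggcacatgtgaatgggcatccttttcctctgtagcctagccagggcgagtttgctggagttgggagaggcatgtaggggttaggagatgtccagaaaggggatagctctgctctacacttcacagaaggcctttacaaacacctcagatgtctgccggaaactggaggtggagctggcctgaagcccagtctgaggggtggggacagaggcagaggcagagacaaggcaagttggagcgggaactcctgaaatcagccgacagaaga
Tnfrsf9 (4-1BB), second listed start, chr4:150927749-150928048, plus strand: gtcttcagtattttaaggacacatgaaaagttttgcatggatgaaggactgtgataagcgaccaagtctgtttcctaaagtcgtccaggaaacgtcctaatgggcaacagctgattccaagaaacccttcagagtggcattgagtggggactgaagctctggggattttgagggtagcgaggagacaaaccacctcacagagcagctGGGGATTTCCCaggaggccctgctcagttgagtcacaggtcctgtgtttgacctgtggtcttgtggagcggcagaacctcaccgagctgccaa
Rel (the NF-kappaB subunit c-Rel), chr11:23770920-23771219, minus strand: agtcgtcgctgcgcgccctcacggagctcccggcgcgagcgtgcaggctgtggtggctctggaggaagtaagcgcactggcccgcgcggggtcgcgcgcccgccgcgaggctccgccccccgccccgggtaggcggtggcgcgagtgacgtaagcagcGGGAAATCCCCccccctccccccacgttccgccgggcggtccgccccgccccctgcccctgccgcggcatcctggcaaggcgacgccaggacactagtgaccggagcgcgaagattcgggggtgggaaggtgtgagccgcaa
Il2ra (CD25), chr2:11642542-11642841, plus strand: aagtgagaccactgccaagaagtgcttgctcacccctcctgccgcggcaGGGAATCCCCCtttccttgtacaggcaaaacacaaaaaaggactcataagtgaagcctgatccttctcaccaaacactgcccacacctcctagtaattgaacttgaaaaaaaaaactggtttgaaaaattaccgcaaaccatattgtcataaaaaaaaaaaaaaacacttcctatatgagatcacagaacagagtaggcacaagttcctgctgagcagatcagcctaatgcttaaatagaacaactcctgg
The windows of Rel and Il2ra hold a match, and so does the second listed start of Tnfrsf9, while the first (chr4:150919905-150920204), Tnfrsf18 and Tnfrsf4 itself hold none. Shares of genes with a match in any of their windows lay near each other among genes that stood high, low or between: 60 of 423 genes at least 1.5-fold higher in OX40-high cells held one (14.2%), 39 of 283 at least 1.5-fold lower (13.8%) and 462 of 3773 in between (12.2%). These counts cover only genes with a window, 4479 of the 5789 tested. The share was 12.5% of those 4479 genes, 9.55% of all 27025 genes with a window, and 8.46% of the 32851 windows themselves. A match describes letters and is no evidence of binding.

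The share of Tnfrsf4 that chose the cells had no gap at the limit. OX40-high cells held 5 to 38 Tnfrsf4 UMIs with a median of 9, and a median share of 0.481% with a highest value of 2.70%. OX40-low cells held 0 to 17 with a median of 2, and 16.9% of them held none. The 5 members nearest the limit stood at 0.4007% to 0.4040%, the 5 nearest cells outside at 0.3989% to 0.3995%, and 171 of the 319 members lay under 0.5%. OX40-high cells are thus the upper end of a continuous range, as the histogram of shares shows.

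**Figure D1:**
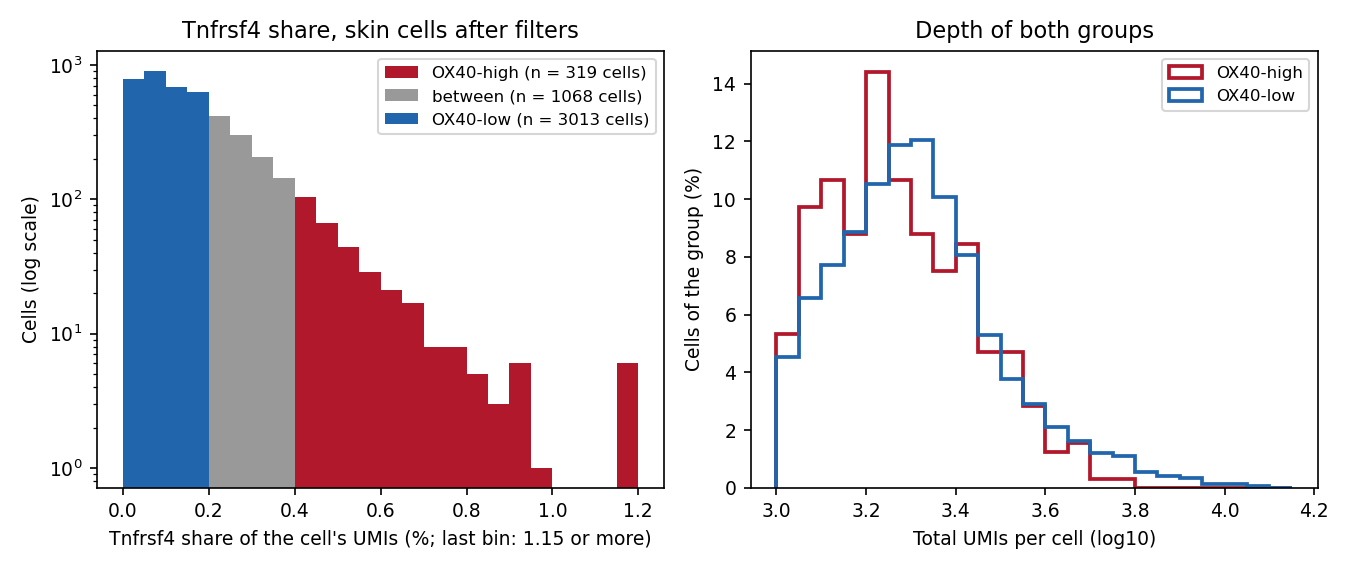
Left, number of filtered skin cells (log scale) by the share of Tnfrsf4 in each cell's UMIs (%), with OX40-high cells in red, the 1068 cells between in grey and OX40-low cells in blue; counts fall across the limit of 0.4% with no gap. Right, total UMIs per cell (log10) as a percentage of each group, with medians of 1802 in OX40-high and 1993 in OX40-low cells before matching.

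Depth differed between the groups and was matched. OX40-high cells had a median of 1802 UMIs and 959 genes, against 1993 UMIs and 1007 genes in all OX40-low cells. Equal numbers were therefore drawn per bin of total UMIs, which gave 319 OX40-high and 319 OX40-low cells with summed totals of 652670 and 650897 UMIs and medians of 1802 and 1796. Levels are CPM, the UMIs of a gene in those sums scaled to equal totals. The skin library as a whole held 16190303 UMIs, and 82 of its barcodes also occur in the lung library.

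Before the comparison, the sort gate and the label were checked. Cd4 stood at 205 CPM in OX40-high and 155 CPM in matched OX40-low cells. Foxp3 was captured too rarely to compare, with 14 UMIs in OX40-high and 26 in matched OX40-low cells, and 21.6 against 23.8 CPM when all OX40-low cells were used. A Foxp3 UMI was found in 4.08% of OX40-high and 5.21% of all OX40-low cells, and in 1.25% (0.343 to 3.18) and 2.56% (2.02 to 3.18) after each cell was thinned to 1000 UMIs. Of 20 barcodes with no Cd3 UMI and at least 10 UMIs of other cell type markers (median 1642 UMIs), 0 held one, which allows a share of up to 15%. The identity of the cells as Tregs therefore rests on the GFP gate of the labels. Ikzf2, which encodes the Treg transcription factor Helios, stood at 2078 CPM in OX40-high and 1605 CPM in matched OX40-low cells, and Ctla4, the inhibitory receptor gene, at 1315 and 1029 CPM.

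OX40-high cells carried more RNA of the receptors GITR, CD25 and 4-1BB and of the NF-kappaB subunit c-Rel, and less of the early response genes Fos and Jun. GITR was 1.95-fold, CD25 2.23-fold, 4-1BB 4.11-fold and c-Rel 2.58-fold higher, while Fos was at 0.418 and Jun at 0.368 of their OX40-low level. Among the 5789 genes that reached 20 CPM in one group or both, 530 were at least 1.5-fold higher (9.16%) and 358 at least 1.5-fold lower (6.18%) in OX40-high cells on the scale of log2(CPM + 5), so that 59.7% of these calls were on the higher side. At 2-fold there were 112 (1.93%) and 66 (1.14%), and the median log2 ratio of all 5789 genes was 0.04. Under median-of-ratios scaling the 1.5-fold counts were 447 and 458, 49.4% on the higher side. The floor of 20 CPM equals 13.0 UMIs in OX40-high cells, so low genes rest on few UMIs. Against all 3013 OX40-low cells the counts were 283 of 5808 (4.87%) and 289 (4.98%) at 1.5-fold, and 37 (0.637%) and 137 (2.36%) at 2-fold.

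Most single calls depended on the processing. Of 85 called genes that the naming rule gave, 19 kept a difference of at least 1.5-fold under all 19 alternatives. The other 66 lost it under at least 1. The alternatives changed matching, limits, scaling, the CPM added, the CPM floor and the cells left out. Those that changed only the floor (50 CPM, 100 CPM or none) could not change a gene's value. They thus count as kept for every gene, here and in each count out of 19 below. Of the 19 genes that kept it, 16 were on the higher side and 3, Fos, Jun and Hspa1a, on the lower side. The 16 were Tnfrsf18, Tnfrsf9, Il2ra, Rel, Cd83, Il1r2, Irf8, Nolc1, Dusp14, Isg15, Psme2, Cd200, Batf, Icam1, Bcl2a1d and Cxcl3. A single cell gave 92.3% of the 52 Cxcl3 UMIs in OX40-high cells. A kept call thus does not show that many cells carry the difference.

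Among the TNF receptors, Tnfrsf18, Tnfrsf9 and Tnfrsf1b were at least 1.5-fold higher and the other 4 measured lay within 1.5-fold. Of 25 listed receptor genes, 7 passed the floor, and 3 of these were at least 1.5-fold higher and 0 lower, with a median log2 ratio of 0.38. For this and each later list, the shares of all 5789 genes were 9.16% higher and 6.18% lower, and no list was tested against them. Tnfrsf18 (ENSMUSG00000041954, chromosome 4, 156026164 to 156028895), which encodes GITR, stood at 1670 CPM (1572 to 1772) in OX40-high cells and 858 CPM (788 to 932) in matched OX40-low cells. Per cell the median was 3 UMIs in OX40-high and 1 in matched OX40-low cells, and the highest values were 23 and 14, so the groups overlap widely. The ratio was 1.95 (1.76 to 2.16), a log2 ratio of 0.96.

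A Tnfrsf18 UMI was present in 90.3% of OX40-high and 77.9% of all OX40-low cells, and after thinning in 77.7% (72.8 to 82.2) and 55.9% (54.1 to 57.6). The share was 25% raw and 20% thinned in the 20 barcodes without Cd3. Both T cell groups were above that share.

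Tnfrsf9 (ENSMUSG00000028965, chromosome 4, 150914562 to 150946102), the gene of 4-1BB, stood at 689 CPM (626 to 755) in OX40-high cells and 168 CPM (138 to 202) in matched OX40-low cells, a ratio of 4.11 (3.33 to 5.11). A thinned UMI was found in 32.6% (27.5 to 38.05) of OX40-high and 12.4% (11.3 to 13.7) of OX40-low cells (46.1% and 23.03% unthinned), against 0 of 20 barcodes without Cd3 (10% unthinned). At least 3 UMIs were found in 49 of 319 OX40-high cells and 6 of 319 matched OX40-low cells. The difference was carried by many cells, since the highest cell gave 4.47% of the OX40-high UMIs. When cells with at least 3 UMIs of other cell type markers were left out, the log2 ratio was 1.22 in place of 2.01.

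The remaining receptors differed less. Tnfrsf1b, which encodes the TNF receptor TNFR2, stood at 308 CPM in OX40-high and 175 CPM in matched OX40-low cells, a ratio of 1.76 (1.39 to 2.23), and its log2 ratio of 0.80 was 0.48 under the alternative that left out the upper part of early response, under 1.5-fold. Cd27, a costimulatory receptor of resting and memory T cells, stood at 484 and 524 CPM, with a ratio interval of 0.789 to 1.08. Tnfrsf25 (death receptor 3) at 108 and 87.7 CPM, Fas, the gene of a death receptor, at 61.6 and 46.1 CPM, and Tnfrsf13b at 24.7 and 24.6 CPM had intervals that included 1. Against all OX40-low cells the Fas ratio was 1.49 (1.04 to 2.09), an interval above 1. Tnfsf4 and Tnfsf18, the genes of the OX40 and GITR ligands, had 0 UMIs in both groups.

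Of 17 ligand genes, 9 passed the floor, with 4 at least 1.5-fold higher and 0 lower (median log2 ratio 0.32). Against all OX40-low cells, where 4.87% of all genes were at least 1.5-fold higher, 1 was called, Tnfsf14, at a log2 ratio of 0.61. Ltb, which encodes lymphotoxin beta, stood at 1337 CPM in OX40-high and 820 CPM in matched OX40-low cells, a ratio of 1.63 (1.46 to 1.82), but its log2 ratio of 0.58 against all OX40-low cells was under 1.5-fold. The others, Tnfsf14, Lta and Tnfsf10, had 17 to 22 UMIs in OX40-high cells, and each changed side under at least 1 other setting. Cd40lg, which encodes the ligand by which T cells help antigen-presenting cells, stood at 111 and 125 CPM.

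Of 15 measured adaptor genes, 3 were at least 1.5-fold higher and 0 lower (median 0.25), against 9.16% and 6.18% of all genes. Traf4, a TRAF adaptor, stood at 95.5 CPM in OX40-high and 41.5 CPM in matched OX40-low cells (ratio 2.30, 1.44 to 3.76), but its log2 ratio was 0.44 in another draw of matched cells against 1.11 in the first. Birc3, which encodes the ubiquitin ligase cIAP2, stood at 139 and 86.1 CPM, and kept 1.5-fold in 9 of 19 alternatives. Traf1, an adaptor induced by NF-kappaB, stood at 645 and 451 CPM, a log2 ratio of 0.51 under the 1.5-fold limit.

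**Figure D2:**
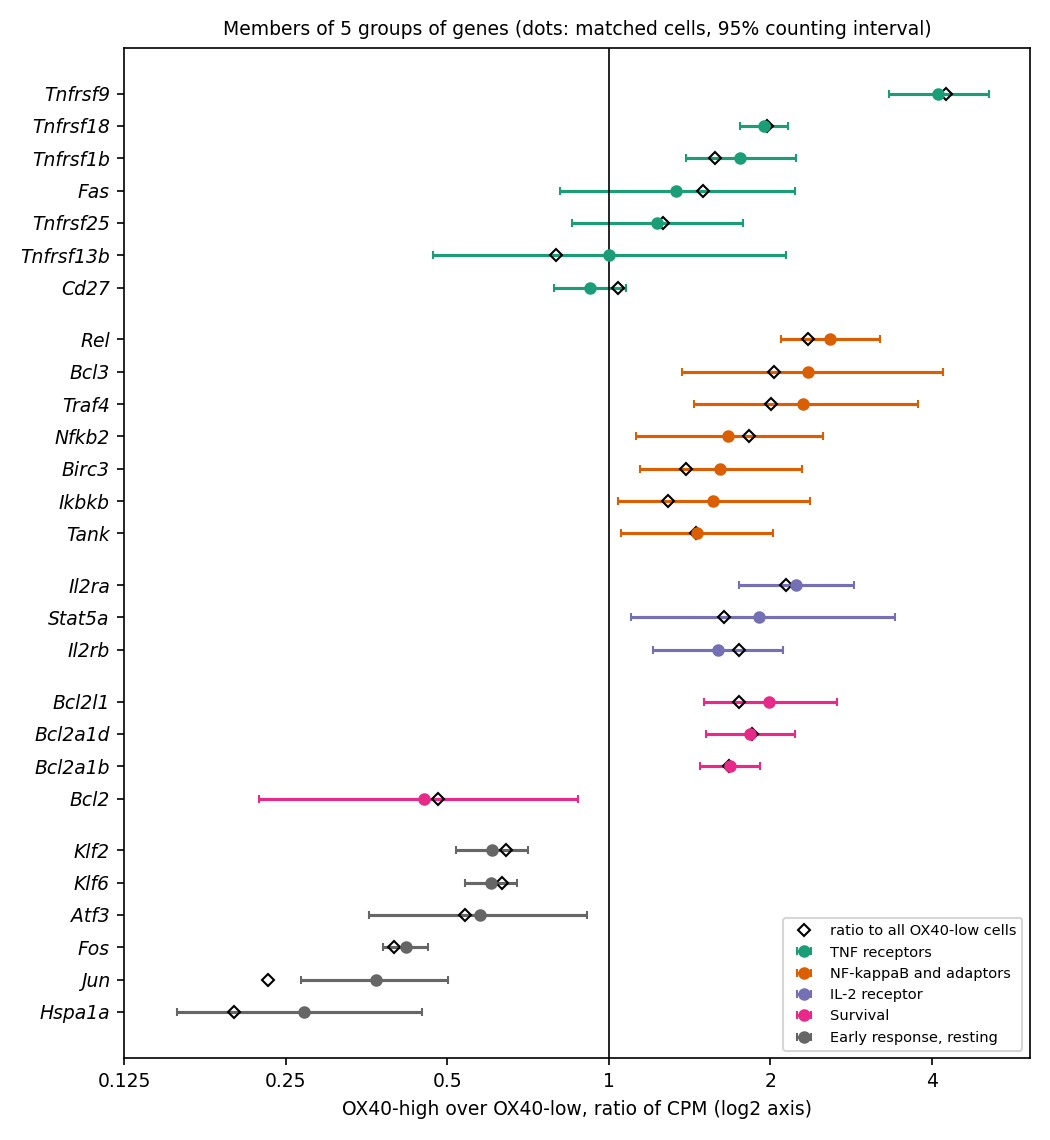
Ratio of CPM, OX40-high over OX40-low (log2 axis), for members of 5 groups of genes coloured by group; dots are the ratio to matched cells with its exact 95% counting interval and open diamonds the ratio to all 3013 OX40-low cells. Tnfrsf9 lies farthest to the right at 4.11, Rel at 2.58 and Il2ra at 2.23, while Fos lies at 0.418 and Hspa1a at 0.271.

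Of 18 measured NF-kappaB subunit and feedback genes, 5 were at least 1.5-fold higher, 0 lower and 13 within that limit, with a median log2 ratio of 0.42 (0.54 in another draw of matched cells, with 7 called). Rel (ENSMUSG00000020275, chromosome 11, 23736847 to 23770970) stood at 488 CPM (436 to 545) in OX40-high cells and 189 CPM (157 to 226) in matched OX40-low cells, a ratio of 2.58 (2.09 to 3.21). A thinned Rel UMI was found in 32.9% (27.8 to 38.4) of OX40-high and 17.3% (15.9 to 18.7) of OX40-low cells (49.2% and 33.0% unthinned), and in 15% of the barcodes without Cd3 (20% unthinned). The OX40-low share was thus near that of the barcodes without Cd3.

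Bcl3, a nuclear partner of the p50 and p52 subunits, stood at 72.4 CPM in OX40-high and 30.8 CPM in matched OX40-low cells (ratio 2.35, 1.37 to 4.19), with a log2 ratio of 0.38 when cells with other cell type markers were left out. Nfkb2 and Relb, genes of the alternative NF-kappaB pathway, stood at 108 and 123 CPM in OX40-high cells and at 64.6 and 80.0 CPM in matched OX40-low cells. Ikbkb, a kinase that triggers degradation of the inhibitor IkB, stood at 98.6 and 63.05 CPM, but was level (log2 ratio −0.003) without cells carrying other markers. Feedback inhibitors differed less: Nfkbia (IkB alpha) stood at 3266 and 2536 CPM and Tnfaip3 (A20) at 541 and 577 CPM.

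In the IL-2 axis, 3 of 16 genes were at least 1.5-fold higher and 1, the kinase gene Pim2, lower (15.4 and 27.7 CPM, with log2 ratios of 0.69 in another draw of matched cells and −0.68 in the first). Il2ra (ENSMUSG00000026770, chromosome 2, 11642807 to 11693193) stood at 333 CPM (290 to 380) in OX40-high cells and 149 CPM (121 to 182) in matched OX40-low cells, a ratio of 2.23 (1.75 to 2.86) and a log2 ratio of 1.13. The median cell of both groups held 0 Il2ra UMIs, and the thinned share with a UMI was 25.4% (20.7 to 30.5) in OX40-high and 15.5% (14.2 to 16.8) in OX40-low cells (43.6% and 27.9% unthinned), against 5% both raw and thinned in barcodes without Cd3. Il2rb, the shared IL-2 and IL-15 receptor chain, stood at 211 and 132 CPM, and Stat5a, which transmits the signal, at 61.6 and 32.3 CPM. Their lowest log2 ratios over the alternatives were 0.40 for Il2rb and 0.20 for Stat5a, under 1.5-fold. The common chain gene Il2rg, at 887 and 714 CPM, and Cish, a STAT5 target, at 205 and 155 CPM, stayed under 1.5-fold.

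Genes induced by antigen receptor signals differed among themselves. Of 19, 6 were at least 1.5-fold higher and 1 lower (median 0.41, but 0.16 in another draw). Cd83, which encodes a surface protein of activated lymphocytes and dendritic cells (chromosome 13, 43784775 to 43803132), stood at 807 CPM (740 to 879) in OX40-high cells and 328 CPM (285 to 375) in matched OX40-low cells, a ratio of 2.46 (2.10 to 2.90). Cd200, an inhibitory ligand gene, stood at 188 and 103 CPM, and Pdcd1, the gene of PD-1, at 165 and 103 CPM, with a log2 ratio of 0.12 for Pdcd1 at 5% mitochondrial UMIs or fewer. Nr4a1, an immediate target of receptor signals, was nearly level at 1624 and 1507 CPM, and Egr1 was lower at 73.9 and 115 CPM. Of 15 checkpoint receptor genes 4 were at least 1.5-fold higher and 0 lower (median 0.30), among them Btla, an inhibitory receptor that binds the TNF receptor HVEM, at 70.9 and 27.7 CPM. The log2 ratio of Btla was 1.21, and 0.28 without the upper part of early response.

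Of 21 early response genes, 0 were at least 1.5-fold higher in OX40-high cells, 5 lower and 16 within that limit, with a median log2 ratio of −0.31. The 5 were Fos, Jun, Atf3, Egr1 and Klf6, and Atf3 changed side when OX40-high cells were taken at 0.6% or more. Fos, a subunit of AP-1, stood at 921 CPM (849 to 998) in OX40-high cells and 2205 CPM (2093 to 2322) in matched OX40-low cells. Jun, its partner, stood at 87.8 CPM (66.5 to 114) and 238 CPM (202 to 279), and the highest single cell held 3 Jun UMIs in OX40-high and 19 in matched OX40-low cells. A thinned Fos UMI was found in 45.5% (39.9 to 51.1) of OX40-high and 60.6% (58.8 to 62.3) of OX40-low cells (62.4% and 78.7% unthinned). The share was 75% in the barcodes without Cd3 (80% unthinned), above both T cell shares. At least 3 Fos UMIs were found in 67 of 319 OX40-high and 122 of 319 matched OX40-low cells.

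Junb and Jund, the other JUN family genes, were level at 6174 and 3686 CPM in OX40-high cells and 5919 and 3846 CPM in matched OX40-low cells. Hspa1a, a stress-induced HSP70 gene with a near-identical paralog that can share reads, stood at 30.8 and 114 CPM, and of 12 heat shock genes it was the one at least 1.5-fold lower, with 0 higher. Collagenase digestion can itself induce these genes in skin cells. The early response list took a median of 2.06% of UMIs in OX40-high and 2.29% in OX40-low cells, and the part of dissociation in the difference was not tested. With cells in the upper part of that share left out, the log2 ratio was −0.99 for Fos and −0.99 for Jun.

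Most of the resting programme was level, but the count of lower genes depended on the cells compared. Of 16 genes 0 were higher and 2 lower, with a median log2 ratio of −0.07, against 9.16% higher and 6.18% lower among all genes. Klf2, which keeps T cells in circulation, was lower at 422 CPM (374 to 475) in OX40-high cells and 697 CPM (634 to 764) in matched OX40-low cells, and Klf6, a related factor on the early response list, at 778 and 1289 CPM. Without the cells of higher early response share both stayed under 1.5-fold, at log2 ratios of −0.31 for Klf2 and −0.34 for Klf6. In that setting, however, 5 of 17 measured resting genes were at least 1.5-fold lower and 0 higher (median −0.12). Of all 5826 genes there, 663 were lower (11.4%) and 790 higher. Tcf7, the gene of the stem-like T cell factor TCF-1, was captured with 13 and 20 UMIs.

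Survival genes of the BCL2 family divided by member. Bcl2l1, which encodes the anti-apoptotic protein BCL-XL and is a target of NF-kappaB and STAT5, stood at 233 CPM (197 to 273) in OX40-high cells and 117 CPM (92.1 to 146) in matched OX40-low cells, with a log2 ratio of 0.96, and of 0.39 without cells carrying other markers. Bcl2a1b and Bcl2a1d stood at 994 and 479 CPM in OX40-high cells and 590.5 and 261 CPM in matched OX40-low cells, but these paralogs are near-identical and their separate values are uncertain. Bcl2, another anti-apoptotic gene, stood at 21.6 and 47.7 CPM from 14 and 31 UMIs, and at a log2 ratio of 0.81 when OX40-high cells were taken at 0.6% or more. The pro-apoptotic genes Bax, at 354 and 347.5 CPM, and Bak1, at 32.4 and 35.4 CPM, were level. In all, 3 of 14 genes were at least 1.5-fold higher and 2 lower, against 9.16% and 6.18% of all genes.

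Effector and tissue genes of skin Tregs stood higher in part. Of 36 tissue Treg genes 9 were at least 1.5-fold higher and 1, Anxa1, lower (185 and 301 CPM), with a median log2 ratio of 0.20. Il1r2, which encodes a decoy receptor for interleukin 1 (chromosome 1, 40074079 to 40125231), stood at 382 CPM (336 to 433) in OX40-high cells and 112 CPM (88.0 to 141) in matched OX40-low cells, a ratio of 3.40 (2.61 to 4.48). It was found in 20% of barcodes without Cd3 after thinning, against 19.7% (15.5 to 24.6) of OX40-high and 8.10% (7.15 to 9.13) of OX40-low cells (35%, 28.5% and 15.6% unthinned), and its log2 ratio was 0.95 in place of 1.72 when cells with other markers were left out. The OX40-high share was thus near or below that of the barcodes without Cd3, and the part of RNA from other cells was not tested. At least 3 Il1r2 UMIs were found in 28 of 319 OX40-high and 3 of 319 matched OX40-low cells.

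Ccr8, a chemokine receptor gene of activated tissue Tregs, stood at 168 CPM in OX40-high and 73.8 CPM in matched OX40-low cells (ratio 2.27, 1.61 to 3.27), and at a log2 ratio of 0.55 when cells with a Ccr7 or Il13 UMI were kept. Tgfb1 stood at 558 and 343 CPM, Furin, a protease that processes TGF-beta, at 180 and 105 CPM, and Itgav, an integrin chain that can activate it, at 237 and 149 CPM. Epcam, an epithelial adhesion gene also seen in skin T cells, stood at 108 and 50.8 CPM, and kept 1.5-fold in 14 of 19 alternatives. Penk, the gene of the opioid precursor proenkephalin, stood at 243 and 123 CPM, but at a log2 ratio of −0.215 without cells carrying other markers.

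Against matched cells, the products that skin Tregs are best known for stayed under 1.5-fold, Areg only just. Areg, the gene of the tissue repair ligand amphiregulin, stood at 1690 CPM (1591 to 1793) in OX40-high and 1158 CPM (1077 to 1244) in matched OX40-low cells, a log2 ratio of 0.54. Il10 stood at 307 and 315 CPM, with a ratio interval of 0.796 to 1.19. Gata3, whose product directs type 2 responses, stood at 749 and 677 CPM, and Il1rl1, the IL-33 receptor gene, at 165 and 155 CPM. Both ratio intervals against matched cells included 1. Without depth matching, cells under 0.1% and cells at 0.5% Tnfrsf4 or more were also set side by side. There Areg stood at 1036 and 1991 CPM, Gata3 at 540 and 769, Il10 at 289 and 379, and Il1rl1 at 129 and 141. Batf, an AP-1 factor of effector Tregs, stood at 233 and 134 CPM, and Rora, a nuclear receptor gene of tissue Tregs, at 721 and 467.5 CPM, the 2 of 20 effector transcription factor genes at least 1.5-fold higher, with 0 lower. That count is near the 9.16% of all genes, and against all OX40-low cells Rora was under 1.5-fold at a log2 ratio of 0.56.

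**Figure D3:**
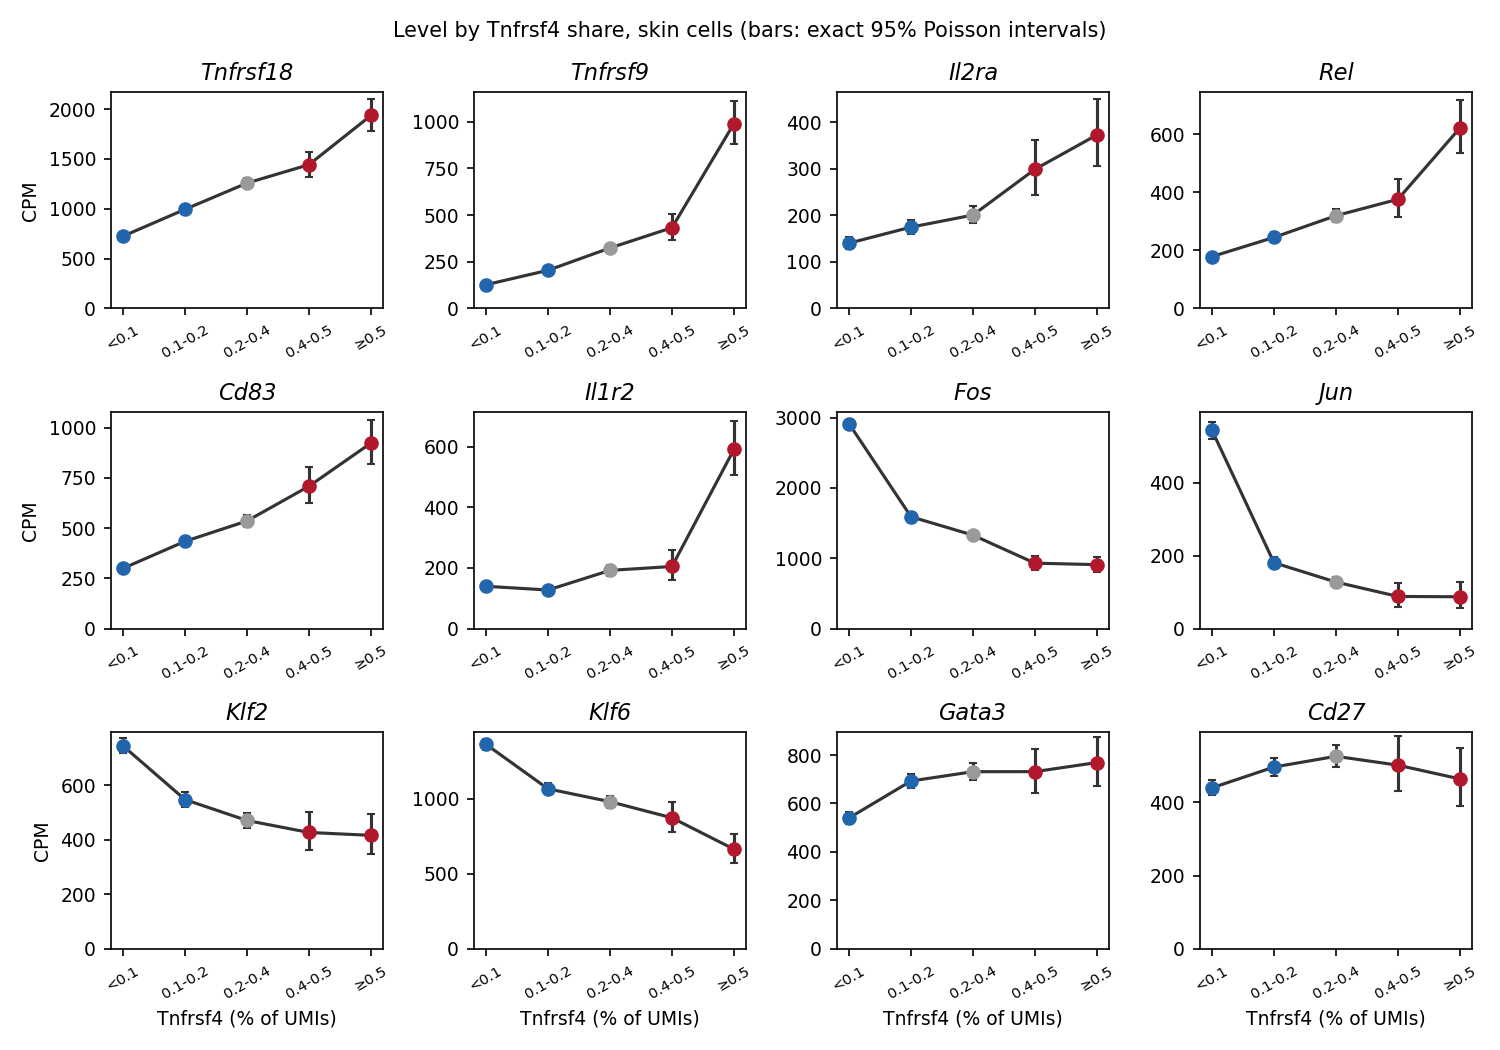
Level (CPM, exact 95% Poisson intervals) of 12 genes in 5 classes of filtered skin cells by Tnfrsf4 share of UMIs (%), with OX40-low classes in blue, the class between in grey and OX40-high classes in red. Tnfrsf9 stands at 127 CPM in the lowest and 991 CPM in the highest class, Fos at 2914 and 910 CPM, and Cd27 at 439 and 463 CPM. The classes were not matched for depth.

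Levels were also set out over 5 classes of Tnfrsf4 share. Tnfrsf18 stood at 725, 995, 1258, 1443 and 1937 CPM from the lowest to the highest class, and Rel at 178, 245, 319, 376 and 621 CPM. Tnfrsf9 stood at 127, 204, 324, 433 and 991 CPM, and Il2ra at 140, 175, 200.5, 299 and 373 CPM. These 4 genes thus stood higher at each step. Fos stood at 2914, 1591, 1329, 931 and 910 CPM, with its widest step between the 2 lowest classes. Jun did likewise, at 544 CPM in the lowest class and 181 CPM in the next. The classes took in all filtered cells without depth matching. Summed fibroblast markers stood at 3959 CPM in all OX40-low and 430 CPM in matched OX40-low cells. H2-Aa, an MHC class II gene on the dendritic list, also had its widest step there, at 221.5 and 32.2 CPM. The part of RNA from other cells in the steps of Fos and Jun was not tested. Cd27 had its highest level in the cells between the limits, at 525 CPM, with 501 and 463 CPM in the OX40-high and 439 and 496 CPM in the OX40-low classes.

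Il1r2 and Irf8 followed another course. Il1r2 stood at 140, 127, 192, 205 and 591 CPM, and Irf8, an interferon regulatory factor gene, at 13.2, 12.2, 15.6, 11.4 and 111 CPM, so both differences came mostly from the 148 cells at 0.5% or more. One cell gave 24.3% of the 37 Irf8 UMIs in OX40-high cells.

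The differences of Tnfrsf18, Tnfrsf9, Il2ra, Rel and Fos were present at each depth. OX40-high cells were cut into 3 equal parts by total UMIs, and OX40-low cells were cut at the same limits. The deepest part began at 2174 UMIs with no upper limit, and reached 5800 UMIs in OX40-high and 12281 in OX40-low cells. The log2 ratio of Tnfrsf18 was 0.95, 0.74 and 1.10 from the shallowest to the deepest part. That of Tnfrsf9 was 2.29, 1.27 and 2.31. That of Il2ra was 1.24, 0.85 and 1.03, that of Rel 0.96, 1.26 and 1.28, and that of Fos −2.01, −0.85 and −1.54. Klf2 differed least among the deepest cells, at −1.22, −0.90 and −0.28.

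Of the 12 genes with the highest ratio among those with at least 50 CPM, Tnfrsf9, Il1r2, Irf8, Rel and Cd83 are described above. Nolc1, a nucleolar protein gene, stood at 81.6 CPM in OX40-high and 24.6 CPM in matched OX40-low cells, and Dusp14, which encodes a phosphatase that restrains T cell receptor signals, at 112 and 41.5 CPM. Dgat2, a triglyceride synthesis enzyme gene, stood at 61.6 and 21.5 CPM, Ehd1, a gene of endosome recycling, at 87.8 and 32.3 CPM, and the serpin gene Serpinb6b at 53.9 and 18.5 CPM. With OX40-high at 0.6% or more the log2 ratios were 0.21 for Ehd1 and 0.21 for Serpinb6b, in place of 1.31 and 1.33, and that of Dgat2 was 0.54 without the upper part of early response. The neutrophil chemokine genes Cxcl3 and Cxcl2 owed their place to few cells: 1 cell gave 92.3% of the 52 Cxcl3 UMIs and 1 gave 42.0% of the 150 Cxcl2 UMIs in OX40-high cells.

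At the other end, beside Fos, Jun and Hspa1a, were Axin2, a feedback gene of Wnt signalling, at 18.5 and 60.0 CPM, Txnip, an inhibitor of glucose uptake, at 32.4 and 76.9 CPM, and Ercc1, a DNA repair gene, at 21.6 and 56.9 CPM. Mir142hg, the host transcript of a lymphocyte microRNA, stood at 16.9 and 55.4 CPM, Hdgfrp2 at 24.7 and 58.4 CPM, Mob3a at 32.4 and 76.9 CPM and Ifitm2, of an interferon-induced family, at 30.8 and 73.8 CPM. All 7 lost the 1.5-fold difference under at least 2 alternatives, and Ercc1, Mir142hg, Mob3a and Ifitm2 changed side under at least 1. H2-Aa, an MHC class II gene, and Ccl8, a chemokine gene, stood at 7.70 and 58.4 CPM and at 4.62 and 73.8 CPM, but 1 matched OX40-low cell gave 47.4% of the H2-Aa and 1 gave 89.6% of the Ccl8 UMIs.

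Among metabolic programmes, the count for glycolysis depended on the cells compared. Of 20 measured glycolysis and hypoxia genes 6 were at least 1.5-fold higher and 0 lower against matched cells (median 0.31), but 3 in another draw. Against all OX40-low cells 1 was called, where 4.87% of all genes were at least 1.5-fold higher. Pgam1, a glycolytic mutase gene, stood at 205 and 96.9 CPM, under 1.5-fold in 7 of 19 alternatives, and Ldha, lactate dehydrogenase A, at 1021 and 744 CPM. All 17 oxidative phosphorylation genes and all 16 actin and motility genes lay within 1.5-fold, with medians of 0.06 and −0.10. Of 15 MHC class I genes 2 were higher and 0 lower, against 9.16% and 6.18% of all genes. Psme2, a proteasome activator gene induced by interferon gamma, stood at 669 CPM (607 to 735) in OX40-high and 323 CPM (281 to 370) in matched OX40-low cells. Isg15, an interferon-stimulated ubiquitin-like gene, stood at 105 and 43.1 CPM. It was 1 of 3 genes at least 1.5-fold higher, with 0 lower, among the 11 measured on its list of 17. Ribosomal protein genes took 17.1% and 18.7% of UMIs.

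RNA of other skin cells was present in both groups. Summed fibroblast markers stood at 342 CPM in OX40-high, 430 CPM in matched OX40-low and 3959 CPM in all OX40-low cells, with Pdgfra and Mgp at 0 in OX40-high cells. Myeloid markers stood at 182, 226 and 898 CPM, with Csf1r, C1qa, Aif1 and Cd14 at 0. Dendritic markers stood at 686, 496 and 1182 CPM, with Cd207, Flt3, Itgax and Cd209a at 0, and most of this sum was Cd74, the invariant chain gene, at 588, 321 and 703 CPM. Keratinocyte markers stood at 81.2, 39.9 and 101 CPM, and CD8 T cell markers at 133, 171 and 159 CPM. Erythroid and neutrophil markers had 0 UMIs in OX40-high cells. At least 3 UMIs over these markers were found in 140 of 319 OX40-high cells (43.9%) and 1144 of 3013 OX40-low cells (38.0%), a list that includes genes T cells also express. Without those cells 179 OX40-high cells remained, and the log2 ratios were 0.73 for Tnfrsf18, 1.05 for Rel, 1.35 for Cd83 and −1.30 for Fos. T cell receptor constant genes were not analysed here.

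The same split was then made in cells that the rule had left out. The 1896 skin cells that failed the rule through a Ccr7 or Il13 UMI held 129 cells at or above 0.4% Tnfrsf4 and 1314 under 0.2%, with median depths of 2038 and 2358 UMIs, unmatched. These cells come from the same library. Of the 530 genes at least 1.5-fold higher, 447 were measured there and 335 of them (74.9%) were also on the higher side, where 56% of all 6014 genes were; 11.9% of those genes were at least 1.5-fold higher and 9.79% lower. Of the 358 lower genes 292 were measured, and 165 (56.5%) were on the lower side, where 44% of all genes were. Both shares were above those of all genes, but a gene counted as measured at 20 CPM in either group. Genes low in both groups could thus enter through the 129 cells where they stood high. The shares of all genes also include the listed genes. No conclusion is drawn from these counts. Tnfrsf9 stood at 920 and 174 CPM in this set, Tnfrsf18 at 1763 and 866 CPM, Rel at 565 and 219 CPM, Il2ra at 311 and 172 CPM, Jun at 162 and 370 CPM and Fos at 1411 and 1781 CPM.

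In lung the limits of the skin rule found 14 OX40-high cells among 3606, with 29781 UMIs in all, so that 20 CPM is less than 1 UMI. Tnfrsf4 stood at 442 CPM in the lung library and 1614 CPM in the skin library. At those limits 210 of 403 measured higher genes (52.1%) were on the higher side, against 46.5% of all 6684 genes, of which 41.8% were at least 1.5-fold higher and 34.7% lower, and 166 of 258 lower genes (64.3%) on the lower side, against 53.5% of all genes. A split by share of cells was therefore added after these counts were seen, the highest 7.25% of lung cells against those with no Tnfrsf4 UMI. In its first form, with 261 and 2019 cells, lung epithelium markers stood at 334 CPM in the higher and 12662 CPM in the lower group. There 262 of 342 higher genes (76.6%) were on the higher side, where 67.7% of all genes were (14.7% at least 1.5-fold higher and 5.06% lower), and 92 of 241 lower genes (38.2%) on the lower side, against 32.3% of all genes.

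With cells of at least 3 other-marker UMIs left out, 132 and 1056 lung cells remained, at 221 and 251 CPM of lung epithelium markers. Of 322 measured higher genes 242 (75.2%) were on the higher side, against the 68.1% of all genes there (23.9% at least 1.5-fold higher and 6.47% lower), and 71 of 217 lower genes (32.7%) were on the lower side, against 31.9% of all genes. The lower genes were thus at the background share in lung, and the higher genes a little above it. Genes counted as measured by the same rule in lung, so no conclusion is drawn from these shares either. Single genes kept wide differences in this set: Tnfrsf9 stood at 217 and 26.9 CPM, Tnfrsf18 at 719 and 268 CPM, Rel at 165 and 53.3 CPM and Cd83 at 296 and 21.7 CPM. Il2ra differed less, at 154 and 113 CPM. Il10 stood at 56.2 and 7.55 CPM in lung and at 504 and 316 CPM in the skin cells with a Ccr7 or Il13 UMI, and Gata3 at 420 and 108 CPM in lung. Fos stood at 513 and 731 CPM and Klf2 at 2701 and 2933 CPM.

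**Figure D4:**
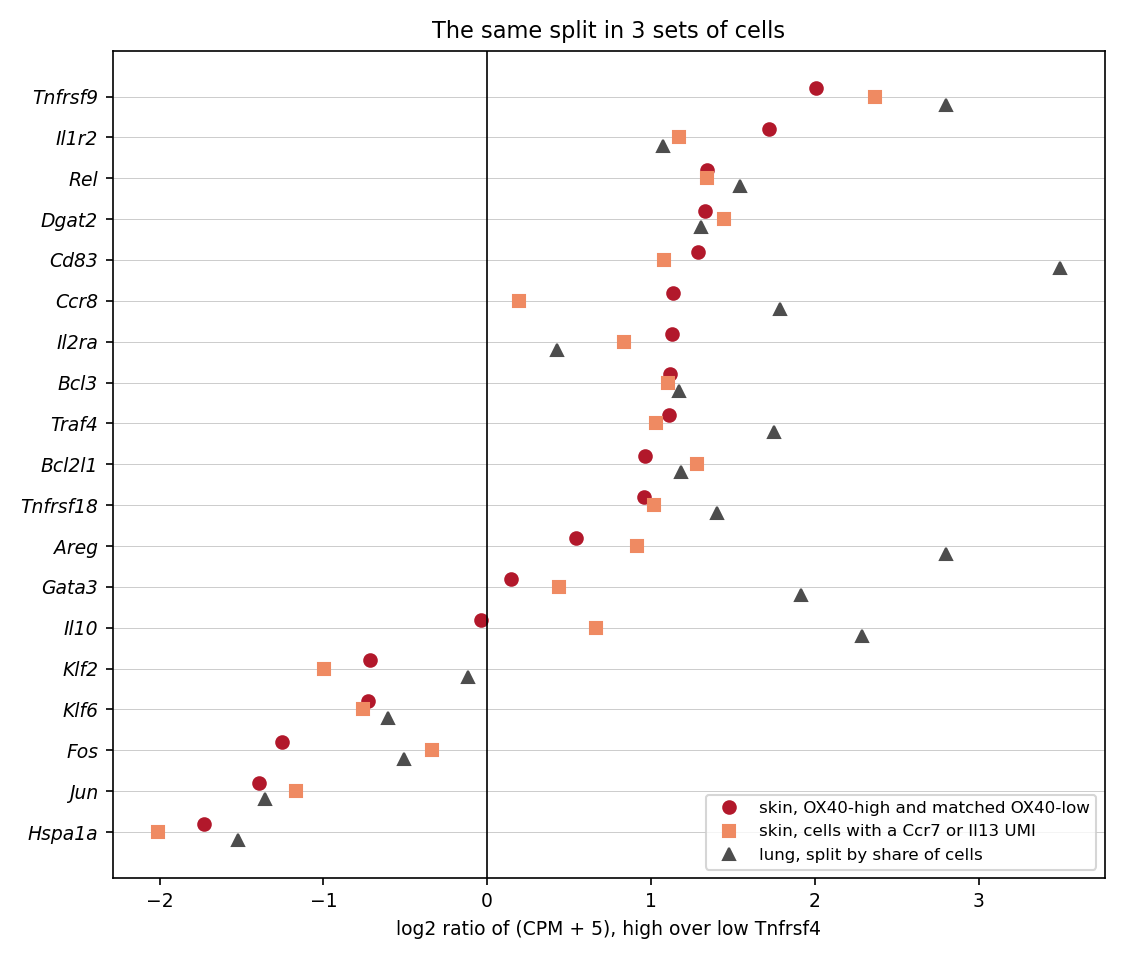
The log2 ratio of (CPM + 5), high over low Tnfrsf4, for 19 genes in 3 sets: red circles are the 319 OX40-high and as many matched OX40-low skin cells, orange squares are skin cells with a Ccr7 or Il13 UMI (129 and 1314 cells), and grey triangles are lung cells split by share (132 and 1056 cells). Tnfrsf9, Rel, Cd83 and Tnfrsf18 lie right of 0 and Jun and Hspa1a left of 0 in each set, while Il10 and Gata3 lie near 0 in the first set alone.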

How the data were processed

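Single-cell RNA was measured with 10x 3' v2 chemistry in 1 skin and 1 lung sample. The authors deposited unnormalized UMI counts as matrices of genes by barcodes. The submitters' processing notes list Cell Ranger and mm10, and a lung header gives software 3.0.2, per the file headers. Of the 2 lung matrices, all 8626 barcodes of the second are among the 8730 of the first, and the first was used.

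Members and gene lists were chosen with earlier results of these data known. OX40-high and OX40-low cells were matched in bins of 0.05 log10 UMIs (seed 1), counts were summed and scaled to CPM without Tnfrsf4, and ratios taken as log2(CPM + 5), which understates low genes, for genes with at least 20 CPM in either group. Folds printed for single genes are plain CPM ratios. Levels carry Poisson, ratios binomial and shares Clopper-Pearson exact 95% intervals. Thinned shares use 1000 UMIs per cell, and left out 0 cells. Python 3.11.15, numpy 2.4.6, scipy 1.17.1 and scanpy 1.11.5 were used, and the contrast was tested on simulated data. Scrublet marked 2 of 6467 skin cells (0.0309%), too few to have worked, so no doublets were removed; leaving out the highest 6% of scores is an alternative. Positions are from GENCODE M21 for GRCm38, and promoters from RefSeq.

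The rule for named genes took the 12 highest and 12 lowest ratios among genes with at least 50 CPM, both markers, Foxp3, Cd4, the TNF receptors and up to 4 members of each of 28 lists. Areg, Il10, Gata3, Il1rl1, Relb and other list members outside this rule were chosen after their values were seen, as was the split of lung by share of cells.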

Additional observations from a re-analysis of the deposited data

How the results depend on the processing

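The 85 called genes that the rule for named genes gave were recomputed under 19 alternatives, which gave 1615 values. Of these, 1350 stayed within the counting interval, 200 moved and 65 changed side, and 56 genes never changed side. The 1350 include every value under the alternative floors, which change only the genes counted and so left each value as it was. A difference of at least 1.5-fold was kept under all 19 by 19 genes. Of the 29 genes that changed side at least once, 17 were under 50 CPM in both groups. Tnfrsf18 moved from a log2 ratio of 0.96 to 1.28 with OX40-high at 0.6% or more, 1.20 with OX40-low under 0.1%, 0.73 without cells carrying other cell type markers and 0.70 when those cells were left out and all OX40-low cells used, the last added after seeing the data. Il2ra moved from 1.13 to 1.79 and 1.53 under the first 2 of these and to 0.74 with Ccr7-positive and Il13-positive cells kept.

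Counts of called genes differed between settings. Against 530 higher and 358 lower genes at 1.5-fold and 112 and 66 at 2-fold, they were 1623, 1494, 1002 and 929 with OX40-high at 0.6% or more (75 cells a group), and 195, 156, 11 and 51 at 0.3% or more (669 cells). With all OX40-low cells the moved counts were 283 higher at 1.5-fold, and 37 and 137 at 2-fold. With 20 CPM added they were 243, 127, 20 and 10, with a floor of 50 CPM 225, 99, 44 and 14, with no floor 1066, 972, 221 and 244, and with a floor of 100 CPM, added after seeing the data, 86, 23, 21 and 4. Without cells carrying other markers they were 855, 708, 282 and 234. Adding 1 CPM moved the 2-fold counts to 203 and 130, and leaving out the upper part of early response gave 663 lower at 1.5-fold, and 201 and 210 at 2-fold. Totals without mitochondrial and ribosomal protein genes gave 544 lower at 1.5-fold and 135 at 2-fold. The 2-fold lower count was 145 after thinning, 187 with OX40-low under 0.1%, 150 at 5% mitochondrial UMIs and 100 without the highest Scrublet scores, and all OX40-low cells without other markers gave 73 higher at 2-fold. Settings that changed the limit or left out cells also changed the number of cells, and the cause was not tested.

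The log2 ratios that changed side were as follows. Without cells carrying other cell type markers, Ccl4 at −0.001, Xcl1 at −0.692, Il5 at −0.692, Lta at −0.433, Penk at −0.215, Pfkl at −0.066, Abcg1 at −0.098, Ikbkb at −0.003, Csf1 at 0.140, Pim2 at 1.070, Ercc1 at 0.298 and Foxp3 at 0.175 were on the other side. Without the highest Scrublet scores, Cxcl2 at −0.175, Bnip3 at −0.213, Traf6 at −0.177, Pfkl at −0.072, Gimap4 at 0.050 and Foxp3 at 0.626 were on the other side. With OX40-high at 0.6% or more, Xcl1 at −1.274, Lta at −0.879, Pfkl at −0.148, Abcg1 at −0.324, Tnfsf10 at −0.660, Isg20 at −0.601, Atf3 at 0.242, Bcl2 at 0.807, Mob3a at 0.631, Ifitm2 at 0.865, Ercc1 at 0.009, H2-Aa at 1.947 and Foxp3 at 0.287 were on the other side. With all OX40-low cells and no cells carrying other markers, Xcl1 at −0.834, Il5 at −0.692, Lta at −0.239, Penk at −0.022, Abcg1 at −0.186, Csf1 at 0.477, Gimap4 at 0.132 and Pim2 at 0.069 were on the other side. At 5% mitochondrial UMIs, Ccl1 at −0.002 and Erap1 at −0.002 were on the other side. With Ccr7-positive and Il13-positive cells kept, Ccl1 at −1.507, Lta at −0.124, Traf6 at −0.320 and Gimap4 at 0.067 were on the other side. After thinning to 1000 UMIs, Tnfsf14 at −0.535, Traf6 at −0.021, Isg20 at −0.023 and Foxp3 at 0.494 were on the other side. Without the upper part of early response, Traf6 at −0.160, Lag3 at −0.448, Csf1 at 0.007, Gimap4 at 0.563, Pim2 at 0.844 and Foxp3 at 0.653 were on the other side. With OX40-low under 0.1%, Ifit1 at −0.082, Csf1 at 0.344 and Gimap4 at 0.051 were on the other side. With OX40-high at 0.3% or more, Abcg1 at −0.066, Erap1 at −0.020, Gimap4 at 0.101 and Mir142hg at 0.007 were on the other side. In another draw of matched cells, Csf1 at 0.347, Gimap4 at 0.055 and Pim2 at 0.689 were on the other side.

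With 13 OX40-high cells holding a Foxp3 UMI, the alternative of such cells alone gave no value; the minimum of 50 cells per group for this was set after the counts were seen. No paired analysis was possible because each tissue has 1 sample and the labels give no replicate numbers. Depth limits low genes: 3 counts in OX40-high cells equal 4.62 CPM.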
